A study of Homo sapiens with 7 samples.

Results

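The genes described here are 36 genes of the unfolded protein response and of the stress program driven by the transcription factor ATF4. They were chosen by name, as the sensors of stress in the endoplasmic reticulum (ER), the chaperones and degradation factors of the ER, and known targets of ATF4, and all 36 have a tested row among the 16527 rows of the authors' deposited table. The cells were PC9, a human lung adenocarcinoma cell line driven by mutant EGFR. Bulk RNA was compared between parental PC9 (3 libraries) and PC9 with the receptor tyrosine kinase AXL knocked out (4 libraries). The knockout libraries are 2 from each of 2 clones, and a clone is the progeny of 1 sorted cell. The clone names in the design text and in the sample titles do not match, and the design text does not use one pair of names throughout. The labels name no drug or ER stressor for any library and give no separate cultures within a group. The p-values therefore measure the spread between these libraries, which may be partly technical, and a difference that a founding cell already carried cannot be told apart from an effect of the knockout.

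The unfolded protein response is the reaction of a cell to misfolded protein in the ER lumen. It has 3 branches, each named for a sensor in the ER membrane. PERK (gene EIF2AK3) phosphorylates the translation factor eIF2, which lowers general translation and lets ATF4 be translated. ATF4 then drives genes of amino acid supply, of feedback (PPP1R15A, TRIB3) and of cell death (DDIT3, which encodes CHOP). GCN2 (EIF2AK4) reaches ATF4 from amino acid shortage without ER stress. IRE1 (ERN1) cuts the XBP1 transcript into a spliced form that encodes a transcription factor for ER co-chaperones and ER-associated degradation. ATF6 is itself cut in the Golgi, and its freed domain drives the large ER chaperones. Bulk MARS-seq, the method of library preparation, counts tags near the 3' ends of polyadenylated transcripts, so they report transcript levels and neither eIF2 phosphorylation nor the splicing of XBP1 nor the cutting of ATF6.

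Most of this program differed little between the groups, and what changed went both ways. For 31 of the 36 genes the fitted difference was under 1.5-fold. That also held for most of all genes tested, whose median absolute log2 fold change was 0.28. By the adjusted p of the authors' deposited table, 9 genes passed as higher in the knockout and 8 as lower (adjusted p under 0.05), and 19 did not pass. In bulk RNA, fewer cells that express a gene and less of its RNA per cell cannot be told apart. Over all 16522 genes tested, 19.5% were higher, 18.5% were lower and 38.0% were called in either direction. The called share of the 36, 17 genes, stands beside 48.7% among all genes with a mean normalized count of at least 50, a level that 33 of the 36 reached. Their median log2 fold change, knockout over parental, was 0.01 against -0.01 over all genes, with 18 genes above 0 and 18 below. Their median absolute log2 fold change was 0.18 against 0.28 over all genes and 0.21 over those with a mean of at least 50. Only EDEM1 (higher) and CHAC1 (lower) combined a call with a change of at least 2-fold. Over all genes tested 9.08% did so, and of those with a mean of at least 50 it was 645 of 10794.

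Each of the 3 branches held called genes in both directions. In the PERK and ATF4 branch the authors' deposited table had 2 genes higher, 4 lower and 8 not passed out of 14, and the median log2 fold change was -0.06. Of the 7 assigned to IRE1 and XBP1, 3 were higher, 1 was lower and 3 did not pass, with a median of 0.24. Of the 12 assigned to ATF6, 3 were higher, 3 were lower and 6 did not pass, with a median of 0.02. The 3 folding factors of no single branch (CANX, PDIA3 and P4HB) had 1 higher and 0 lower by the authors' DESeq2 test, 0 also at an unadjusted p under 0.05. Differences between the branches were not tested.

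**Figure D1:**
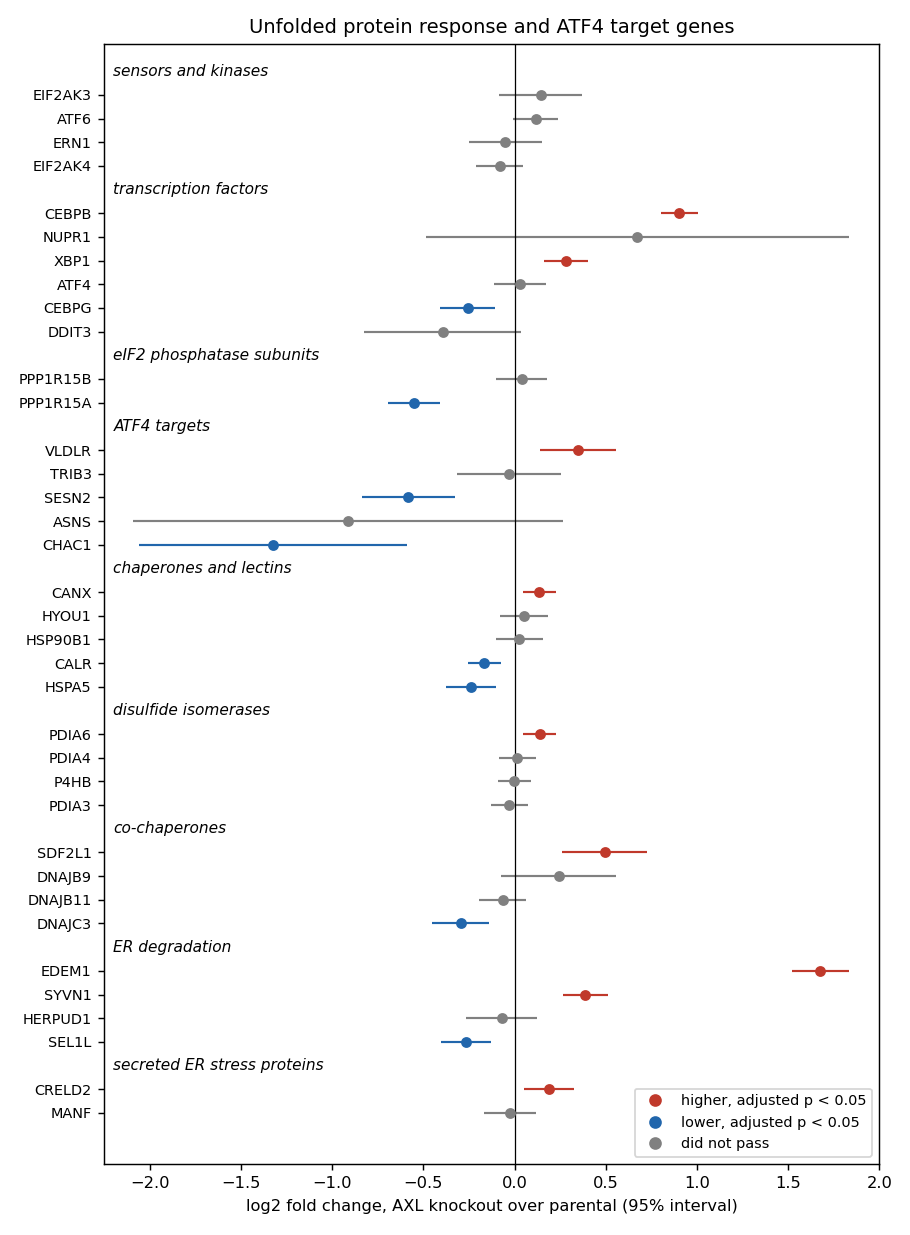
Log2 fold change, AXL knockout over parental, of each of the 36 genes in the authors' deposited table, with 95% normal intervals from the deposited standard errors, arranged by role. Red and blue points passed an adjusted p under 0.05 and grey points did not. EDEM1 at 1.68 and CHAC1 at -1.32 are the extremes, and the 4 sensors lie close to 0.

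Deposited values are means over all libraries, but for genes with a mean under 1000 the whole reads of each library could be recovered from the digits of the mean together with the fold change. That gave 1 solution for 21 of the 36 genes and for AXL. Libraries are lettered within a group by the scaling applied to them, since the table does not say which replicate or clone each one is. AXL itself had 1476, 1471 and 1425 reads in the parental libraries and 24, 15, 11 and 22 in the knockout libraries, or 1417 ± 30.4 (SD, n = 3) and 18.2 ± 5.97 (n = 4) normalized reads. An average library held 12209504 normalized counts, and the size factors of the 7 libraries lie between 0.938 and 1.06. Epithelial markers were abundant, with EPCAM at 7953 in parental and 7789 in knockout cells and KRT8 at 24512 and 50455. KRT18 went from 17826 to 29450.5, and KRT19 from 23310 to 32736, while CDH1 went from 3007 to 2392 and EGFR from 12828 to 11092. Of the lung lineage markers, NKX2-1 was at 9.47 and 0.182 and NAPSA at 1.62 and 3.57, both near the floor, while SFTPB was at 117 and 209. Among markers of other cells, PTPRC of leukocytes had no row with a test, COL1A1 was at 126 and 84.0, and PECAM1 was at 351 and 1777. The 13 transcripts of the mitochondrial genome, kept as a measure of RNA quality, were all lower in the knockout, at a median log2 fold change of -0.73, with summed levels of 413582 and 245327. Whether these marker differences have a part in any result below was not tested.

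Promoter sequences were read from RefSeq (GRCh38.p14) to show what the regulated genes of the 3 branches carry upstream. A window of 300 bases, 250 before a start and 50 after it, was available for 34 of the 36 genes and searched on both strands for 4 published motifs. The ER stress element ERSE, read by ATF6 with NF-Y, is CCAAT followed by any 9 bases and CCACG. It was found in 27 of 35116 promoter windows (0.0769%) and in 7 of the 34 genes, namely CALR, CANX, CRELD2, HSP90B1, HSPA5, PDIA6 and XBP1. The second form, ERSE-II, is ATTGG, any 1 base and CCACG, and was found in 19 windows (0.0541%) and in HERPUD1, HYOU1 and SDF2L1. The XBP1 element UPRE, searched as TGACGTGG, was in 256 windows (0.729%) and, of these genes, in HYOU1, where it overlaps 1 of that promoter's 2 copies of ERSE-II. The composite site of ATF4 with C/EBP proteins, searched as TGATGNAA, was in 1270 windows (3.62%) and in ASNS, CEBPG, CHAC1, HERPUD1 and PPP1R15B. The 250 bases before the start are printed for 4 genes: EDEM1 as the largest rise, HSPA5 as the chaperone most used to read ER stress, SDF2L1 as the largest rise among genes with such a motif, and CHAC1 as the largest fall. Capitals mark the motif, with the strand of the gene shown 5′ to 3′.
EDEM1 (chr3:5187457-5187706, plus strand, none of the 4 motifs): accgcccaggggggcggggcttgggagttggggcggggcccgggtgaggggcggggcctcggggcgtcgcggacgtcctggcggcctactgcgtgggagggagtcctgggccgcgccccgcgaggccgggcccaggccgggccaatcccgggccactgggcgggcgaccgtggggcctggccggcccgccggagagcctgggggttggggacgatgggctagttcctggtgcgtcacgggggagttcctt
HSPA5 (chr9:125241344-125241593, minus strand, ERSE): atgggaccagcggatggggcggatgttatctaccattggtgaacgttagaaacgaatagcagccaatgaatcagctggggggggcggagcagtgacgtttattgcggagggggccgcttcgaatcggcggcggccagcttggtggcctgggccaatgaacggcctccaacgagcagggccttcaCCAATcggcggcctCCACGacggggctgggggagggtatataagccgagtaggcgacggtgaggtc
SDF2L1 (chr22:21642052-21642301, plus strand, ERSE-II on the opposite strand): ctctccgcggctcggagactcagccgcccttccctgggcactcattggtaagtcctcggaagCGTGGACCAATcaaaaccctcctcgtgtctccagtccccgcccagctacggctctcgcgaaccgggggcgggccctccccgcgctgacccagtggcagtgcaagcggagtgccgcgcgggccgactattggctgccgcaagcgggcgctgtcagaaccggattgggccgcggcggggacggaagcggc
CHAC1 (chr15:40953221-40953470, plus strand, ATF4 site on the opposite strand): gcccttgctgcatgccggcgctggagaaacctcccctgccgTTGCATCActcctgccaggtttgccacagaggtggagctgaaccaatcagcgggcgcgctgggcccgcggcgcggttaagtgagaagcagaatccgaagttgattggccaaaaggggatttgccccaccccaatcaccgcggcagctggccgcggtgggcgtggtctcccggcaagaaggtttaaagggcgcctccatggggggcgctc

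Genes with an ERSE went both ways by the authors' test. Of the 7 with ERSE, 4 were higher (CANX, CRELD2, PDIA6 and XBP1), 2 were lower (CALR and HSPA5) and 1 did not pass (HSP90B1) in the authors' deposited table. Of the 5 with the ATF4 site, 2 were lower (CEBPG and CHAC1) and 3 did not pass. With a t distribution (5 degrees of freedom), XBP1 alone of the called genes with either motif kept its call. In the HSPA5 window the ERSE spans positions -66 to -48 from the start, and in the SDF2L1 window the ERSE-II spans -188 to -178. A match describes the letters of a window and shows no binding.

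None of the 4 sensors and kinases changed by the authors' test, 0 in either direction and 0 at an unadjusted p under 0.05. EIF2AK3, which encodes PERK, had 205, 203 and 189 reads in the parental and 212, 229, 199 and 202 in the knockout libraries, a deposited log2 fold change of 0.14 ± 0.12 (SE; adjusted p 0.361). Its groups did not overlap after scaling (193 ± 6.09 and 214 ± 11.6), but they lay close together. ERN1, which encodes IRE1, had 362, 337 and 301 against 293, 318, 335 and 286 reads, and its normalized values overlapped between the groups. Its 95% interval in the authors' deposited table ran from -0.25 to 0.15. ATF6 had 970, 885 and 864 against 986, 969, 904 and 902 reads. After scaling, its knockout libraries (953 ± 14.5) all lay above its parental libraries (880.2 ± 27.9), yet the deposited change of 0.11 ± 0.06 did not pass (adjusted p 0.150). EIF2AK4, which encodes GCN2, went the other way, with all knockout libraries (797 ± 26.6) below all parental ones (844 ± 14.7) and a deposited log2 fold change of -0.08 ± 0.07 (adjusted p 0.356). The transcripts of the 3 ER sensors thus had interval limits between -0.25 and 0.37 on the log2 scale in the authors' deposited table.

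Among the transcription factors, CEBPB had the second largest rise among the genes that passed. CEBPB, a C/EBP factor that pairs with ATF4 and CHOP and also serves inflammatory signalling (GRCh38 chromosome 20, 50190734 to 50192689), went from 3944 to 7379 normalized counts, a log2 fold change of 0.90 ± 0.05 in the authors' deposited table (95% interval 0.80 to 1.00, adjusted p 9.94e-67). Its relative CEBPG, the preferred partner of ATF4 on composite sites, fell from 631, 611 and 606 reads to 530, 483, 473 and 489. In normalized reads that was 599 ± 4.97 against 501 ± 17.2, without overlap, with a deposited log2 fold change of -0.26 ± 0.08 (adjusted p 0.00274). XBP1, the target of IRE1, rose from 1351 to 1643 (0.28 ± 0.06, adjusted p 2.75e-05). This level sums the spliced and unspliced transcripts, which 3' tags cannot separate.

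The central factor of the PERK branch did not pass. ATF4 stood at 5657 and 5778 normalized counts, a deposited log2 fold change of 0.03 ± 0.07 (95% interval -0.11 to 0.17). DDIT3, the transcript of CHOP, had 68, 74 and 59 parental reads and 61, 55, 34 and 46 knockout reads. The knockout libraries all lay lower after scaling, the highest only just (49.4 ± 10.2 against 65.1 ± 7.20), and the change of -0.39 ± 0.22 in the authors' deposited table did not pass (adjusted p 0.155). DDIT3 overlaps MARS1 and MBD6 on the opposite strand, and the use of strand in the counting is not given in the sources used here. NUPR1, a small stress-induced chromatin protein, was too low to judge, with 7, 5 and 7 reads against 12, 17, 6 and 4.

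The 2 regulatory subunits that lead the phosphatase PP1 to eIF2 parted. PPP1R15A (GADD34; chromosome 19, 48872392 to 48876057), the stress-induced subunit and an ATF4 and CHOP target, had 927, 834 and 871 parental reads and 608, 559, 533 and 590 knockout reads. The groups were far apart, at 852 ± 27.4 and 581 ± 34.6 normalized reads, a log2 fold change of -0.55 ± 0.07 in the authors' deposited table (adjusted p 3.75e-13). PPP1R15B (CReP), the constitutive subunit, had 808, 736 and 684 against 758, 741, 736 and 685 reads. Its groups overlapped, and the deposited log2 fold change was 0.04 ± 0.07 (95% interval -0.10 to 0.18).

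**Figure D2:**
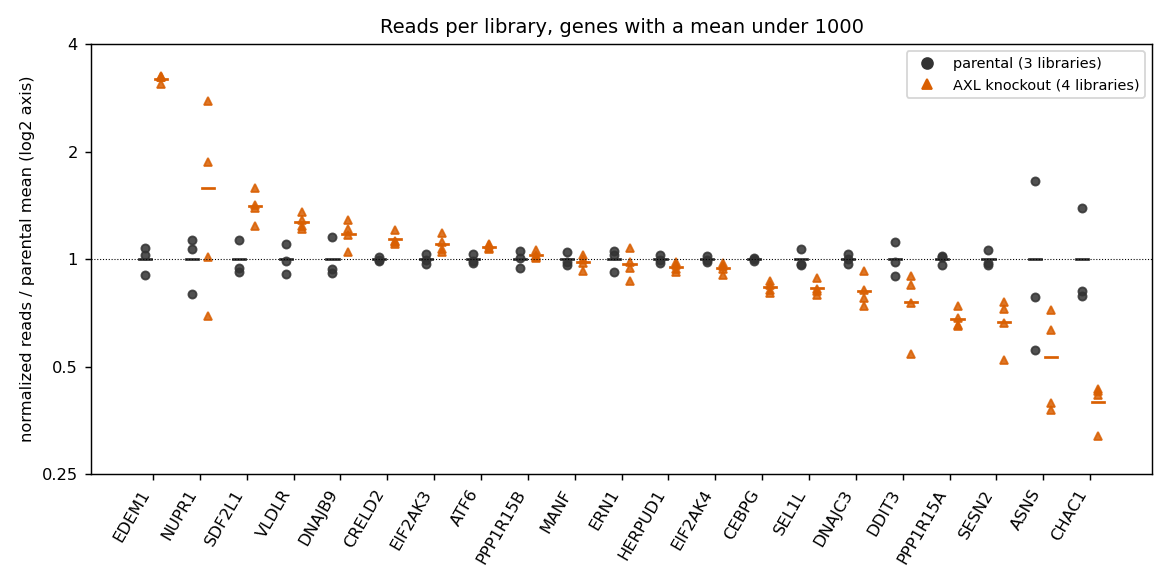
Normalized reads of each library divided by the parental mean of the same gene, on a log2 axis, for the 21 genes whose whole reads were recovered. Circles are the 3 parental and triangles the 4 knockout libraries, and short bars are group means. EDEM1 stands 3.20-fold above the parental mean, and CHAC1, SESN2 and PPP1R15A lie below it without overlap between groups.

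Of the 5 classical ATF4 targets, 1 was higher, 2 were lower and 2 did not pass, with a median log2 fold change of -0.58 in the authors' deposited table. CHAC1, a glutathione-degrading enzyme used as a marker of ATF4 activity (chromosome 15, 40952962 to 40956519), had 26, 24 and 42 parental and 10, 13, 12 and 12 knockout reads. The lowest parental library lay above the highest knockout library, at group values of 29.9 ± 10.2 and 12.0 ± 1.60. That was 2.50-fold lower, a deposited log2 fold change of -1.32 ± 0.37 (95% interval -2.06 to -0.59, adjusted p 0.00167). With a t distribution in place of the normal one its adjusted p was 0.0680, which ends the call. SESN2, a leucine-sensing inhibitor of mTORC1 (chromosome 1), had 242, 252 and 227 against 185, 122, 149 and 159 reads. The groups did not overlap (234 ± 12.5 and 156 ± 24.4), and the deposited log2 fold change was -0.58 ± 0.13 (adjusted p 4.02e-05). One library alone did not set these falls, since in refits that left out each library in turn CHAC1 kept a log2 fold change of -1.47 to -1.01, SESN2 of -0.65 to -0.48 and PPP1R15A of -0.59 to -0.53.

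The other targets differed among themselves. VLDLR, a lipoprotein receptor induced through ATF4 under ER stress, had 275, 235 and 215 parental and 298, 302, 279 and 297 knockout reads. It rose without overlap, from 234 ± 22.6 to 298 ± 14.1, with 0.35 ± 0.11 in the authors' deposited table (adjusted p 0.00412). ASNS, asparagine synthetase, was barely counted, with 6, 17 and 8 against 4, 4, 7 and 6 reads. At that depth its deposited interval of -2.09 to 0.26 spans both a 4-fold fall and no change, and a transcript that overlaps it on the same strand (ENSG00000284707) has its own row, so reads may have been split. TRIB3, a pseudokinase that restrains ATF4 and AKT, stood at 936 and 916 normalized counts. Its deposited log2 fold change was -0.03 ± 0.15 (adjusted p 0.905).

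The large ER chaperones and lectins, most of them textbook ATF6 targets, moved little. HSPA5 (BiP; chromosome 9), the chaperone that also holds the 3 sensors inactive, went from 8595 to 7278 normalized counts, -0.24 ± 0.07 in the authors' deposited table (95% interval -0.38 to -0.10, adjusted p 0.00253). HSP90B1 (GRP94), its partner, was at 9557 and 9731 (0.03 ± 0.07, adjusted p 0.810). The paired lectins of the calnexin cycle went opposite ways, with soluble CALR going from 11896 to 10604 (-0.17 ± 0.05, adjusted p 0.00121) and membrane-bound CANX from 8882 to 9751 (0.13 ± 0.05, adjusted p 0.0116). Both changes were below 1.2-fold, and both calls ended with a t distribution (5 degrees of freedom), as did that of HSPA5. HYOU1 (GRP170), the nucleotide exchange factor of BiP, was at 3508 and 3636 (0.05 ± 0.07, adjusted p 0.605).

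The disulfide isomerases, which form and shuffle disulfide bonds, were the flattest group in the authors' deposited table. PDIA6 rose from 3974 to 4372 (0.14 ± 0.05, adjusted p 0.00905). PDIA3, PDIA4 and P4HB did not pass, with log2 fold changes of -0.03, 0.01 and -0.00 and deposited intervals that together ran from -0.13 to 0.11. By the authors' DESeq2 test 0 isomerases were lower, and 0 were at an unadjusted p under 0.05. HSP90B1 and PDIA3 have processed copies elsewhere in the genome, and how the authors treated reads that fit several places is not given in the sources used here.

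The co-chaperones, which regulate BiP, divided. SDF2L1, an ER protein that joins DNAJB11 and BiP (chromosome 22, 21642261 to 21644298), had 193, 179 and 219 parental and 279, 237, 262 and 284 knockout reads. All knockout libraries lay above all parental ones, 269.8 ± 27.0 against 192 ± 22.5, and the log2 fold change in the authors' deposited table was 0.49 ± 0.12 (adjusted p 1.77e-04). DNAJC3 (p58IPK), a co-chaperone also described as an inhibitor of PERK, had 849, 759 and 777 against 661, 601, 550 and 669 reads. It fell without overlap, from 772 ± 25.4 to 629.6 ± 61.4, with -0.30 ± 0.08 (adjusted p 8.56e-04). That call ended with a t distribution (5 degrees of freedom). DNAJB9 (ERdj4), a BiP partner that represses IRE1 and is a standard XBP1 target, had 94, 92 and 112 against 130, 113, 113 and 95 reads. Its groups overlapped, and the deposited change was 0.24 ± 0.16 (95% interval -0.07 to 0.56). DNAJB11 (ERdj3) was at 1154 and 1103 (-0.07 ± 0.07, adjusted p 0.471).

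The largest change of the whole program, and the one with the smallest p, was in ER-associated degradation, which returns misfolded glycoproteins to the cytosol. EDEM1, which trims mannose from misfolded glycoproteins to mark them for disposal (chromosome 3, 5187646 to 5219957), had 353, 323 and 281 parental and 1046, 1005, 962 and 895 knockout reads. In normalized reads the 4 knockout libraries were close together at 989.9 ± 23.8, far above the parental 309.6 ± 27.3. The log2 fold change was 1.68 ± 0.08 in the authors' deposited table (95% interval 1.52 to 1.83, adjusted p 7.60e-97), 3.20-fold. Refits without each library in turn gave 1.61 to 1.73. All 7 measured neighbours of EDEM1 on one side rose as well.

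The ubiquitin ligase complex that receives EDEM1's clients had 1 part higher, 1 lower and 1 not passed. SYVN1 (HRD1), the ligase and an XBP1 target, rose from 1019 to 1333 normalized counts (0.39 ± 0.06, adjusted p 4.36e-09 in the authors' deposited table). Its span overlaps FAU on the same strand and MRPL49 on the opposite one. SEL1L, the adaptor that stabilizes HRD1, fell from 1082, 942 and 927 reads to 790, 790, 751 and 795. That was 955 ± 53.8 against 793 ± 38.8 normalized reads without overlap, with a deposited change of -0.27 ± 0.07 (adjusted p 4.96e-04). That call ended with a t distribution (adjusted p 0.0537) and after the median of its neighbours was subtracted (-0.16). HERPUD1, a membrane scaffold of the complex with both an ERSE-II and an ATF4 site in its promoter, had 300, 292 and 300 against 284, 267, 268 and 267 reads, and the groups overlapped after scaling (289 ± 8.13 and 275 ± 7.68). Its deposited log2 fold change was -0.07 ± 0.10.

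Of the small secreted proteins that ER stress induces, CRELD2 passed and MANF did not. CRELD2 had 706, 680 and 686 parental and 788, 742, 780 and 705 knockout reads. After scaling the groups did not overlap (671 ± 9.07 and 765 ± 30.5), and the log2 fold change in the authors' deposited table was 0.19 ± 0.07 (adjusted p 0.0217). It lost its call in refits without parental library a, parental library b or knockout library c, at log2 fold changes of 0.18, 0.19 and 0.16. Its start overlaps that of ALG12, which lies on the opposite strand and was also higher (0.31). MANF, a survival factor that binds BiP, had 760, 668 and 674 against 659, 680, 641 and 656 reads and a deposited log2 fold change of -0.03 ± 0.07.

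Across the 21 genes with recovered reads, the groups did not overlap in 14, of which 6 were higher in the knockout and 8 lower. In a systematic sample of 142 genes with a mean of 5 to 1000 the share without overlap was 49.3%. That sample was not matched to the 21 genes in mean, so the shares cannot be read against each other. The non-overlapping genes included EIF2AK3, ATF6, EIF2AK4 and DDIT3, which did not pass the authors' test.

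**Figure D3:**
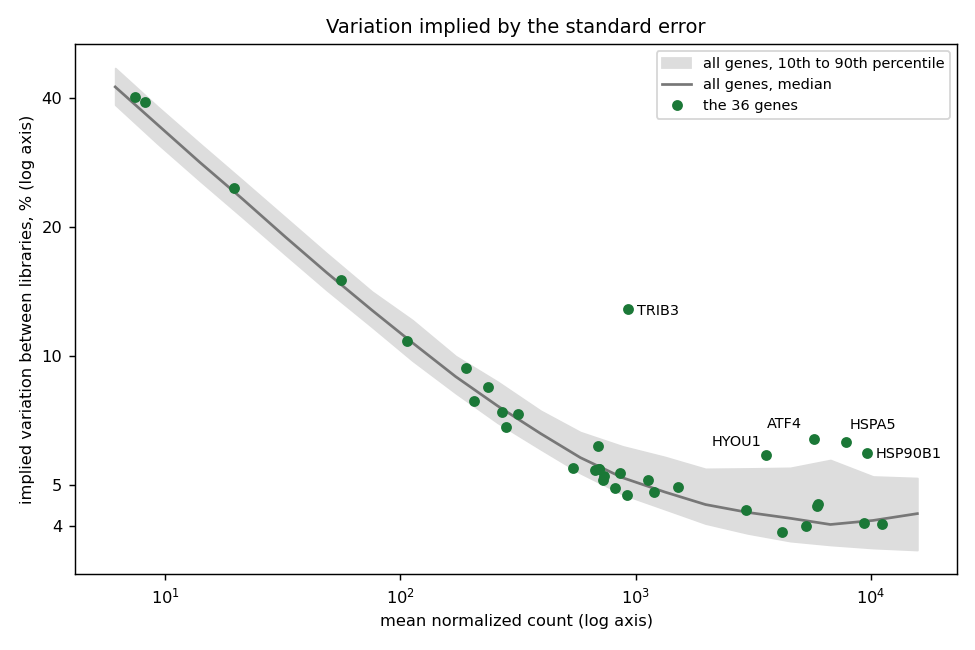
Variation between libraries of one group implied by the deposited standard error (coefficient of variation without counting noise, log axis) against the mean normalized count (log axis). Points are the 36 genes, the line is the median of all genes at that mean and the band their 10th to 90th percentile. TRIB3, ATF4, HSPA5, HYOU1 and HSP90B1 lie above the band.

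The variation between libraries of one group was also read for each of these genes. The standard error in the authors' deposited table implies a coefficient of variation for each gene, once the mean, the fold change and the numbers of libraries are given. For TRIB3 it was 12.8%, against a median of 5.16% over the 1393 genes nearest to it in mean, and it exceeded 98.9% of them. For ATF4 it was 6.40% against 4.10% (above 96.2% of 212 genes), and for HSPA5 6.29% against 4.09% (above 92.9%). HYOU1 at 5.87% and HSP90B1 at 5.93% exceeded 92.7% and 92.2% of the genes near their means. The other chaperones, CALR at 4.04% and CANX at 4.07%, were above 42.7% and 47.2% of such genes, while SESN2 was above 85.1%, DNAJC3 above 83.8% and SDF2L1 above 80.2%. In all, 19 of the 36 genes lay above the median of the genes near their mean, close to the even split that a median gives over all genes. TRIB3, ATF4, HSPA5, HYOU1 and HSP90B1 are named because they ranked highest, so they do not describe the 36 as a set. DESeq2 draws each gene's variation towards a trend over all genes, so these are fitted and not raw values. Which libraries differed could not be read for TRIB3 or for genes with a mean of 1000 or more.

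Neighbouring genes were set beside each member because genes that lie close together can shift together. For each gene the nearest 10 measured protein-coding genes on each side, where present, were taken from GENCODE positions. EDEM1 lay at a border. All 7 measured neighbours at lower coordinates, towards the end of the chromosome arm, were higher in the authors' deposited table, with log2 fold changes from 0.60 to 2.03 (median 1.72), and 4 of them rose at least as much as EDEM1. Among these, SUMF1, the activator of sulfatases in the ER, had 2.03 ± 0.08 (named after its value was seen). Of the 10 neighbours at higher coordinates, 8 were lower and 0 higher by the authors' DESeq2 test, with a median of -0.33 and a highest value of -0.06. Less the median of the lower-coordinate side, EDEM1 had -0.04. The deposited standard error of EDEM1 alone was 0.08, which does not cover the spread of those neighbours. A change of the region and a change of the gene itself cannot be told apart in these data. ATF4 at 0.03 likewise had 7 of 10 neighbours higher at lower coordinates (median 0.88) and a median of -0.01 on the other side. VLDLR had 3 neighbours at lower coordinates with a median of 0.36, close to its own 0.35. CEBPB lay among 20 neighbours with a median of 0.16, 9 of them higher and 1 lower, below its own 0.90. HYOU1 lay in a stretch of chromosome 11 where 15 of 20 neighbours rose and 1 fell (median 0.40), while HYOU1 had 0.05. CALR was lower at -0.17 among neighbours with a median of 0.11, 10 of which were higher. For the other members the median over both sides lay between -0.15 and 0.11. That median can hide a shift on one side. Taken apart, the sides of these members ran from -0.32 (DNAJB11, higher coordinates, 6 of 10 lower and 2 higher) to 0.19 (PDIA4, lower coordinates, 5 of 10 higher and 2 lower).

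**Figure D4:**
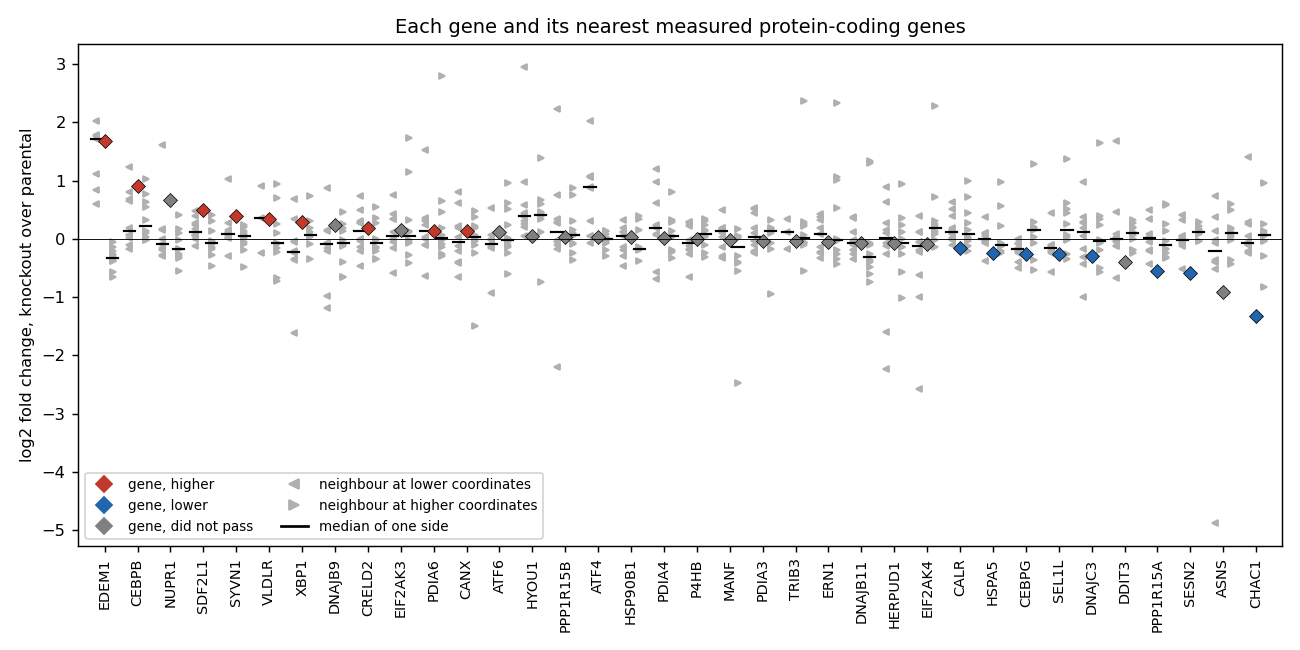
Log2 fold change, from the authors' deposited table, of each of the 36 genes (diamonds, coloured by call) and of the nearest measured protein-coding genes on each side (grey triangles pointing to lower or higher coordinates), with the median of each side as a black line. EDEM1 at 1.68 lies level with its neighbours at lower coordinates (median 1.72) and above those at higher coordinates (median -0.33), and HYOU1 at 0.05 lies below both sides.

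Other genes of the same pathways, listed by textbook function, extend these results. For comparison, 38.0% of all genes tested were called in either direction, and 48.7% of those with a mean of at least 50. Of 20 ATF4-linked genes of amino acid synthesis and uptake, 5 were higher, 6 were lower and 9 did not pass in the authors' deposited table, with a median log2 fold change of -0.04. The glycine transporter SLC6A9 (1.22 ± 0.08), the serine synthesis enzyme PHGDH (0.60 ± 0.05) and the neutral amino acid transporter SLC38A2 (0.30 ± 0.06) rose. PSPH, the last enzyme of serine synthesis (-0.73 ± 0.07), the cystine carrier SLC7A11 (-0.72 ± 0.07) and the leucine carrier SLC7A5 (-0.37 ± 0.04) fell. Of 10 neighbours of PSPH at lower coordinates, 7 were lower and 1 higher (median -0.57), while its other side had a median of -0.04.

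Aminoacyl-tRNA synthetases, which ATF4 induces as a set, were counted together with the tRNA exporter XPOT. These 13 genes gave 4 lower and 0 higher by the authors' DESeq2 test, with a median of -0.05. At an unadjusted p under 0.05, 5 were lower and 2 were higher. GARS1 (-0.36 ± 0.05), YARS1 (-0.26 ± 0.06) and TARS1 (-0.24 ± 0.06) were the lowest by p in the authors' deposited table. Among 12 other stress genes of ATF4 and CHOP, 3 rose and 5 fell, with a median of -0.11. JDP2, an AP-1 family repressor, rose from 97.9 to 346 (1.82 ± 0.12), and the p53 and stress target BBC3 rose by 0.50 ± 0.20. Stanniocalcin STC2 (-0.38 ± 0.06), the ATF4 relative ATF5 (-0.43 ± 0.07) and the angiogenic factor VEGFA (-0.25 ± 0.05) fell, and KLHL24 rose (0.71 ± 0.24). The falls of at least 2-fold were those of DDIT4, an mTORC1 inhibitor (1447 to 715, -1.02 ± 0.21), and of ATF3, a stress-induced repressor (29.4 to 10.4, -1.51 ± 0.39), which were named after their values were seen.

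Genes for the machinery of eIF2 were called in both directions. The 13 genes were those for eIF2, its exchange factor eIF2B, its kinases and the linked factors GCN1, IMPACT and NCK1. Of these, 4 were higher, 5 were lower and 4 did not pass in the authors' deposited table, with a median of 0.09. GCN1 and NCK1 were among the 4 higher. The heme-regulated kinase EIF2AK1 (0.24 ± 0.05), the GCN2 activator GCN1 (0.19 ± 0.06) and the eIF2B subunit EIF2B1 (0.27 ± 0.07) rose. The eIF2B subunits EIF2B2 (-0.45 ± 0.06) and EIF2B3 (-0.63 ± 0.10) and the phosphorylated subunit of eIF2, EIF2S1 (-0.24 ± 0.05), fell. EIF2B1 had 9 and 6 of 10 neighbours higher at lower and higher coordinates (medians 0.58 and 0.32), and GCN1 had 6 and 7 (0.29 and 0.59). For EIF2AK1, EIF2B2, EIF2B3 and EIF2S1 the medians of each side lay between -0.17 and 0.19. Whether a shift of the region has a part was not tested. Of 9 tested partners of IRE1 and ATF6, 2 rose and 1 fell, with a median of 0.11. These were CREB3L2, an ATF6 relative (0.84 ± 0.07), MAP3K5, the kinase ASK1 downstream of IRE1 (0.54 ± 0.08), and CREB3L1 (-0.69 ± 0.25).

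Degradation factors beyond the 36 genes had 7 higher, 3 lower and 10 not passed of 20 in the authors' deposited table, with a median of -0.02. The conjugating enzyme UBE2J1 (0.34 ± 0.07) and the lectin ERLEC1 (0.26 ± 0.07) rose. The channel component DERL2 (-0.56 ± 0.09), the extracting ATPase VCP (-0.30 ± 0.06) and its cofactor NPLOC4 (-0.18 ± 0.06) fell. DERL2 had 9 and 7 of 10 neighbours lower at lower and higher coordinates, and 0 higher (medians -0.35 and -0.43). Beside VCP the medians were 0.01 and -0.37.

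Protein entry into the ER and N-glycosylation had the largest share of rises among these lists. It had 17 higher, 4 lower and 10 not passed of 31 in the authors' deposited table, and a median log2 fold change of 0.17. Among all 10794 genes with a mean of at least 50, 2805 were higher and 2451 lower. STT3B, a catalytic subunit of the oligosaccharyltransferase that attaches the glycans read by EDEM1, rose from 973 to 3413 normalized counts, a log2 fold change of 1.81 ± 0.06 (adjusted p 3.23e-207). All 10 of its nearest measured genes at higher coordinates were higher too (median 1.53). The subunits of the signal recognition particle receptor, SRPRA (0.58 ± 0.05) and SRPRB (0.68 ± 0.07), rose too, and 18 of the 20 neighbours of SRPRA were higher. SRP72 of the particle itself (-0.85 ± 0.05) and the channel subunits SEC61G (-0.69 ± 0.06) and SEC62 (-0.30 ± 0.05) fell. Beside SRP72, 7 of 10 neighbours at lower coordinates were lower and 0 higher (median -1.13). Beside SEC62 it was 7 and 1 (-0.50). The medians on their other sides were -0.30 and -0.16. Of 10 neighbours of SEC61G at higher coordinates, 9 were lower and 0 higher (-0.55), while its other side had a median of 0.11.

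Further folding and retrieval factors had 13 higher, 7 lower and 12 not passed of 32 in the authors' deposited table, with a median of 0.08. The folding factor ERP29 (0.46 ± 0.06) and the retrieval receptors KDELR1 (0.31 ± 0.05) and KDELR3 (0.74 ± 0.12), which return escaped ER proteins, rose. UGGT1, the sensor of misfolded glycoproteins in the calnexin cycle (-0.61 ± 0.05), the translocon stabilizer SERP1 (-0.37 ± 0.06) and the reductase DNAJC10 (-0.27 ± 0.04) fell. SERP1 had 7 and 8 of 10 neighbours lower at lower and higher coordinates, and 2 and 0 higher (medians -0.47 and -0.48). Of 10 neighbours of UGGT1 at lower coordinates, 9 were lower and 1 higher (median -0.28), and for DNAJC10 it was 7 and 0 (-0.25). The medians on their other sides were -0.08 and -0.00. The COPII coat, which carries folded cargo out of the ER, had 2 higher, 3 lower and 8 not passed of 13, with a median of -0.03. PREB (0.36 ± 0.06) and SAR1A (0.15 ± 0.05) rose, and SEC13 (-0.53 ± 0.06), SEC31A (-0.29 ± 0.06) and SEC24D (-0.26 ± 0.10) fell. Of 10 neighbours of SAR1A at higher coordinates, 7 were higher and 1 lower (median 0.41), while its other side had a median of -0.14.

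**Figure D5:**
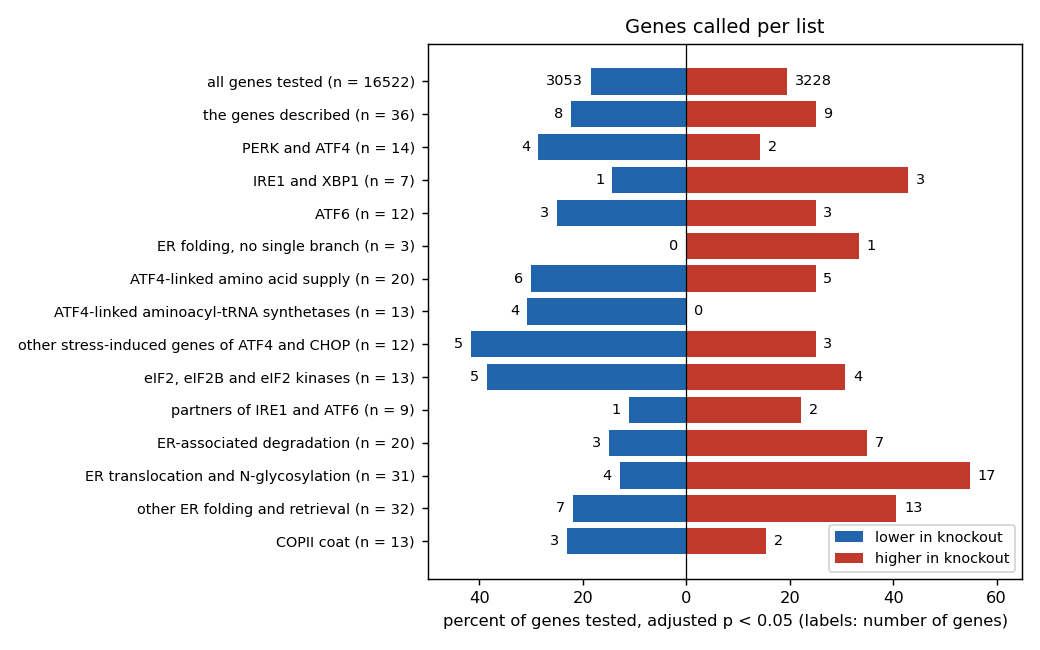
Percent of tested genes that were higher (right, red) or lower (left, blue) in the knockout by the authors' deposited adjusted p (under 0.05), with the number of genes at each bar. The top bar is all 16522 genes and the next one the 36 genes described, followed by their branches and by the wider pathway lists. The list of ER translocation and N-glycosylation has 17 of 31 genes higher.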

How the data were processed

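Bulk MARS-seq RNA profiles of 7 PC9 libraries were analysed, grouped by the sample labels. Per the file headers, the columns the authors deposited are a signal (the normalized count averaged over libraries), the log2 fold change and its standard error (log2 units), the Wald score, and raw and adjusted p-values, 1 row per Ensembl gene. The submitters' processing notes name DESeq2. For aligner, build, annotation and strand, nothing is given in the sources used here. Recomputed over the 16522 tested rows, Benjamini-Hochberg adjustment returns the deposited adjusted p, and 5 rows have a mean of 0. The file turned out to hold no counts per library, so no count test across genes was run.

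The table does not name its contrast. All 68 rows with a mean under 0.6 can be written as whole reads times 7 steps, 1 per library (tolerance 1e-10), 3 on the negative and 4 on the positive side. Of 126 ways to assign the sides, the best matches the sign in 68 of 68 rows and the next in 59. Since 3 libraries are parental and 4 are knockout, a positive value means higher in the knockout. The steps are 1 over the size factors. For genes with a mean under 1000, reads were searched that give the deposited mean and, in a 2-group negative binomial fit, the deposited log2 fold change to 5e-07, within 3.5 SD. The search was checked on reads simulated for 12 of the recovered genes, and it returned the right reads for all 12. The recovered genes with the highest means were not simulated, so the check does not cover them. These were EDEM1, PPP1R15A, PPP1R15B, DNAJC3, SEL1L, CRELD2, MANF, EIF2AK4 and ATF6. It was run for 22 of the 36 genes and gave 1 solution for 21; for TRIB3 the search was too wide, and 14 genes have higher means. As background, every 80th gene with a mean of 5 to 1000 was searched, which solved 142 of 145. Refits without each library used these reads with the dispersion implied by the deposited standard error. Group levels of other genes come from the mean and the fold change, weighted by 3 and 4 libraries. Intervals cover 95% and are normal.

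Symbols were matched for 16428 of 16527 identifiers. Positions are those of GENCODE 29 (GRCh38), which held 16517. The 36 genes and the lists were chosen with earlier results of these data known. All 36 genes are named, and from each wider list up to 3 higher and 3 lower genes with the smallest p (adjusted p under 0.05, mean at least 20). One gene that this rule took is not reported here. The search of protein C termini for ER retrieval signals was not run. Alternatives were a threshold of 0.01, a 2-fold minimum, a mean of at least 20, a t reference distribution (5 degrees of freedom), a null of up to 0.5 in absolute log2 fold change, centring on the median of genes with a mean of at least 50, and subtraction of the neighbours' median, over both sides and, chosen after seeing the data, over each side apart. Python 3.11.15, NumPy 2.4.6, SciPy 1.17.1, pandas 2.3.3 and numba 0.67.0 were used.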

Additional observations from a re-analysis of the deposited data

How the results depend on the processing

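At a threshold of 0.01, 7 genes were higher and 8 lower, at a mean of at least 20 it was 9 and 7, and after centring 9 and 8, against 9 and 8 as reported. The gene lost at a mean of at least 20 was CHAC1, whose mean was 19.7. A 2-fold minimum left 1 higher and 1 lower, and a t distribution with 5 degrees of freedom 5 higher (XBP1, SDF2L1, EDEM1, SYVN1 and CEBPB) and 2 lower (PPP1R15A and SESN2). A null of up to 0.5 in absolute log2 fold change left 2 higher and 0 lower, or 2 and 1 at an unadjusted p under 0.05. Subtracting the median of the neighbours at lower coordinates alone, a setting chosen after seeing the data, turned EDEM1 to -0.0425 and VLDLR to -0.0102. It ended the calls of CEBPG, CRELD2, PDIA6 and SEL1L and brought ATF4, ATF6, HYOU1 and PDIA4 past the threshold. Subtracting that of the neighbours at higher coordinates ended the call of HSPA5 and brought DNAJB11, EIF2AK4, HSP90B1, HYOU1 and PDIA3 past it. Over both sides the subtraction reversed no called gene, ended the calls of PDIA6 and SEL1L and brought ATF6, EIF2AK4, HSP90B1, HYOU1 and PDIA3 past the threshold; at that setting the cause was not tested. Of 147 refits without 1 library, 144 gave the same call, and the other 3 were those of CRELD2 (0.16 to 0.20 over its refits). Refits of the counts of genes were not run, since reads were recovered for 21 of the 36. No paired analysis was possible because the table does not say which replicate number each recovered library has. Depth limits NUPR1, ASNS, CHAC1 and DDIT3, whose intervals are wide.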
